A study of Mus musculus with 38 samples.

Results

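Natural killer (NK) cell receptor and cytotoxic granule genes were followed in spleen RNA of 38 BXD mouse strains. The set was 8 genes taken by name, the receptor genes Klrd1, Klrc1, Klrb1c and Ncr1 and the granule genes Gzma, Gzmb, Prf1 and Nkg7. They are 8 of the 17411 named genes on the array, and each had exactly 1 probe. BXD strains are recombinant inbred lines, each a fixed mosaic of the genomes of a C57BL/6 and a DBA/2 parent. All mice were untreated adults of 8 to 12 weeks; no parental strain was on an array. Each strain had 1 array, hybridised with equal amounts of spleen RNA from 2 mice of the same sex and strain. The labels give 3 arrays as female, those of BXD18, BXD38 and BXD96, and the other 35 as male. Flow cytometry of lymphocytes gave immunophenotypes for 34 of these strains; BXD70, BXD75, BXD83 and BXD87 had none used here.

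NK cells kill infected or transformed cells without prior immunisation, and the decision rests on the balance of inhibitory and activating receptors. In the mouse, many of these receptors are C-type lectin-like proteins encoded side by side on chromosome 6, in a stretch known as the NK gene complex. Klrd1 encodes CD94, which pairs with the NKG2A chain encoded by Klrc1 to form an inhibitory receptor for the nonclassical MHC molecule Qa-1. Klrb1c encodes NK1.1, the classical surface marker of mouse NK cells in C57BL/6 mice, and Ncr1 encodes the activating receptor NKp46. On contact with a target, NK cells and cytotoxic T cells release perforin, the pore-forming protein encoded by Prf1, and granzymes, the serine proteases encoded by Gzma and Gzmb; Nkg7 encodes a granule membrane protein needed for efficient release. Mice of the DBA/2J substrain are known to lack CD94.

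To show the sequence next to the genes whose probes were above background on all arrays, the RefSeq promoters (GRCm38.p6; 250 bases before to 50 after the start, written on the gene's strand) of Klrb1c (chr6:128788592-128788891, minus strand), Prf1 (chr10:61297586-61297885, plus strand) and Nkg7 (chr7:43436888-43437187, plus strand) are given. Capitals mark every match to TGTGGT, the core bound by Runx factors, or to TCACAC, a core bound by T-box factors such as T-bet and Eomes, on either strand (ACCACA and GTGTGA are the reverse complements).
Klrb1c: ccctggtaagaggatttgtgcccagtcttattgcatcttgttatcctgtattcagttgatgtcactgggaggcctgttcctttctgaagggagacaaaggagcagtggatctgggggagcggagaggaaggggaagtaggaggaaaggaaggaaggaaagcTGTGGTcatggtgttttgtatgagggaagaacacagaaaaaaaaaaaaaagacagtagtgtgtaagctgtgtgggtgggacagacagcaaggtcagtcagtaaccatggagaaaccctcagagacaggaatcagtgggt
Prf1: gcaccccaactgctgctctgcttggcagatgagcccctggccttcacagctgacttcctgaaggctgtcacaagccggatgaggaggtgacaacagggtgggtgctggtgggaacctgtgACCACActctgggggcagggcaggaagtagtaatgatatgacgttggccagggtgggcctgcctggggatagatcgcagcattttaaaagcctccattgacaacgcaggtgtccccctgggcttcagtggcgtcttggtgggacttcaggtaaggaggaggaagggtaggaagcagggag
Nkg7: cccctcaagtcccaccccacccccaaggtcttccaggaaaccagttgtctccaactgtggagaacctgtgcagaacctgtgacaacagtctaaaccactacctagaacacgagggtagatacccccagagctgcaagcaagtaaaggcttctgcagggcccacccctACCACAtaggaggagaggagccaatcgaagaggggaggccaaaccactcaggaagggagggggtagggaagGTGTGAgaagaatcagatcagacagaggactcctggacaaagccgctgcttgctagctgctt
A promoter was found for 7 of the 8 members, all but Klrd1. All 7 held TGTGGT or its reverse complement, which 16.8% of the 32851 mouse promoters of the same 300 bases also held. TCACAC or its reverse complement was in the promoters of 3 of the 7, Gzmb, Ncr1 and Nkg7, and in 14.5% of all promoters. The letters were searched for with the members already known, and a match is a description of the sequence, not a bound site.

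The arrays detected 13791 to 15732 probes each, and 17583 of 34492 probes, for 11167 named genes, were detected on at least 3 arrays and analysed. A probe counted as detected where its detection p-value, smoothed over probes of like intensity, was below 0.01. Levels below are log2 intensities after background correction and normalization, and they are compared between arrays for 1 probe, not between probes. Of the 12 NK cell markers listed for a check of the tissue, 10 were measured and Ncr1 and Gzma were not. Genes of pancreatic secretory cells also reached high levels on some arrays, the mean of 13 measured genes running from 5.50 to 15.4 (BXD28). The range was 9.71 to 13.06 for 7 erythroid genes and 9.30 to 13.52 for 8 neutrophil genes. Bulk RNA cannot tell fewer NK cells from less RNA per cell.

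Of the 8 members, 5 were measured, namely Klrd1, Klrc1, Klrb1c, Prf1 and Nkg7. The probes of Ncr1, Gzma and Gzmb were detected on 0 of 38 arrays. Ncr1 had intensities of 56.4 to 107.1 (median 78.68), Gzma of 54.83 to 104.1 (median 69.73) and Gzmb of 53.85 to 97.9 (median 68.18). Their log2 medians, 4.65, 4.51 and 4.48, lay below the medians of undetected probes, which ran from 4.68 to 4.71 over the arrays. These 3 genes therefore gave only an upper bound here, and no result on them is given. With 1 probe per gene, a transcript at low level and a probe that responds poorly cannot be told apart.

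**Figure D1:**
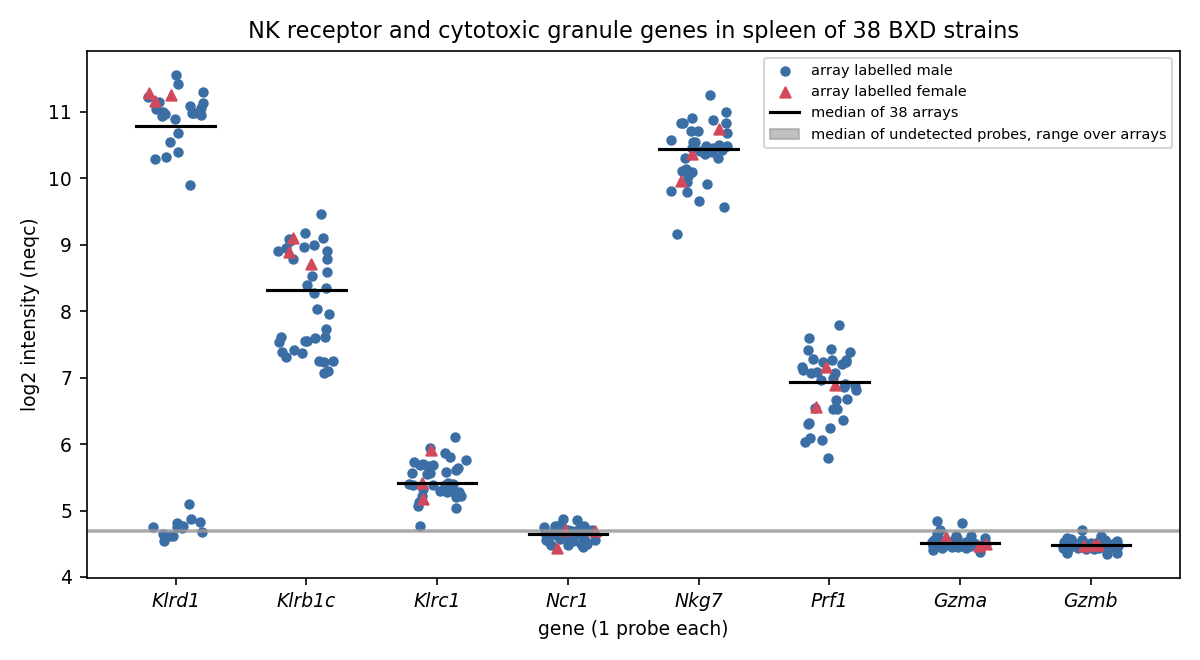
Log2 intensity of the 8 genes (x axis) on each of 38 arrays (points), with the median as a bar and the range of the array medians of undetected probes as a grey band. Klrd1 falls into 13 low and 25 high arrays, Klrb1c spreads from 7.07 to 9.46 (log2), and Ncr1, Gzma and Gzmb stay at the grey band.

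Among the receptors, Klrd1 showed a level near background or a high level and nothing in between. On 13 arrays it was not detected, with log2 values of 4.54 to 5.10 (median 4.75) and intensities of 72.67 to 98.83. On the other 25 arrays it ran from 9.90 to 11.56 (median 11), with intensities of 959.2 to 3779. The 13 strains with the low level were BXD34, BXD36, BXD40, BXD51, BXD61, BXD65, BXD69, BXD70, BXD73, BXD75, BXD83, BXD87 and BXD98. The lowest of the high arrays was BXD44, and the highest were BXD6 (11.56), BXD29 (11.42) and BXD68 (11.30). No array lay between 5.10 and 9.90. The lower edge of this gap is set by the background, so its width depends on the processing: it was 4.81 log2 units here, 3.19 without background correction, 1.91 in the authors' table and 1.57 with the detection p-values as deposited, with the same 13 strains below it each time.

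To set Klrd1 against other genes, a probe was called split when its largest gap, with at least 5 arrays on each side, was at least 0.5 log2 units and at least 2 times the pooled SD within the sides. By this rule 329 of the 17583 probes, or 1.87%, were split, and they covered 202 named genes, 11 of them on chromosome 6. Klrd1 was 1 of 5 measured members with the pattern. The other 4 members had no such gap, though Klrc1 lay too close to background for a gap as wide as that of Klrd1. A split says only that strains fall into separate levels; no genotypes were used here.

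The low level of Klrd1 was not spread evenly over the strain numbers. It was found in 0 of the 13 strains numbered to 32, in 3 of the 6 numbered 33 to 42 and in 10 of the 19 numbered from 43. BXD lines in these ranges came from successive breeding efforts. The ranges were set after the values were seen, so no test is given. Klri2, which encodes a lectin-like receptor chain and lies a few genes away in the NK gene complex, served as a neighbour for comparison. It was chosen after its values were seen and was among the named genes most like Klrd1. The match of sides given here partly follows from that choice. Klri2 was low on 19 arrays, 4.31 to 4.84 (median 4.47), and high on 19, 6.02 to 7.65 (median 7.15). It was detected on 19 arrays, so its low level lay near background. Its low level occurred in 5 of the 13 strains numbered to 32, in 3 of the 6 from 33 to 42 and in 11 of the 19 from 43. All 13 strains low for Klrd1 were low for Klri2. The other 6 strains low for Klri2 (BXD11, BXD19, BXD24, BXD29, BXD32 and BXD44) were high for Klrd1, and 5 of these 6 are numbered to 32.

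**Figure D2:**
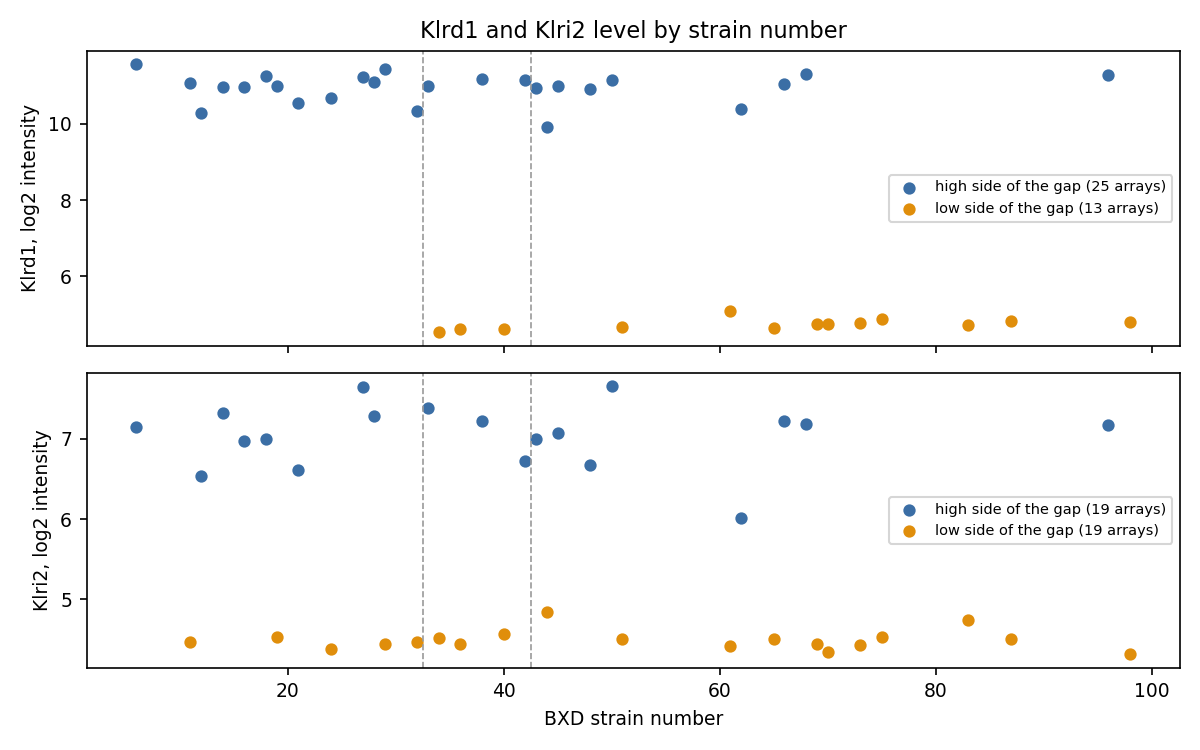
Log2 intensity of Klrd1 (top) and Klri2 (bottom) against BXD strain number, coloured by side of the largest gap; dashed lines separate strains numbered to 32, 33 to 42 and from 43. Low Klrd1 begins in the middle range (0 of 13 strains to 32), while low Klri2 is present throughout (5 of 13).

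Klrb1c (NK1.1) was detected on all 38 arrays, from 7.07 in BXD36 and 7.11 in BXD44 to 9.17 in BXD45 and 9.46 in BXD27 (median 8.32, SD 0.751). Its SD was above that of 94.96% of the probes measured, whose median SD was 0.288. The values formed 2 broad ranges, 18 arrays at 7.07 to 8.04 and 20 at 8.28 to 9.46, but the gap of 0.246 between them was too small for a split. The neighbouring gene Klrb1b, which encodes the inhibitory receptor NKR-P1D, was split, from 4.57 to 4.76 on 18 arrays and from 5.71 to 7.47 on 20. Klrb1b was detected on 19 arrays, so its low side lay near background, which narrows that side. A split in Klrb1b and none in Klrb1c is therefore no measure of a difference between these genes. The 18 strains on the low side of Klrb1b were the 18 strains in the lower range of Klrb1c, so the sides matched on 38 of 38 arrays. Klri2 matched both on 37 of 38 arrays. The exception was BXD34, low for Klri2 and Klrd1 and high for Klrb1b and Klrb1c.

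Klrc1 (NKG2A) was close to background. It was detected on 10 of 38 arrays, with log2 values from 4.77 in BXD70 to 6.10 in BXD66 (median 5.41, SD 0.284) and intensities from 91.16 to 136.5. Its lower values cannot be ranked against each other. Klrc1, whose protein is the partner of the Klrd1 protein, had a largest gap of 0.127 log2 units with at least 5 arrays on each side. Its whole range near background was 1.33 log2 units, which left no room for a gap as wide as that of Klrd1. The genes therefore cannot be contrasted by their gaps. Sides of the largest gap of Klrc1 matched those of Klrd1 on 26 of 38 arrays, a count that rests mostly on Klrc1 values not detected.

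The granule genes had narrower distributions without a gap. Prf1 ran from 5.80 in BXD21, 6.04 in BXD44 and 6.06 in BXD19 to 7.44 in BXD51, 7.60 in BXD83 and 7.79 in BXD66 (median 6.94, SD 0.477). Nkg7 ran from 9.16 in BXD12, 9.57 in BXD36 and 9.65 in BXD50 to 10.91 in BXD45, 11 in BXD27 and 11.25 in BXD29 (median 10.44, SD 0.439). The strains named at the ends of the 2 ranges were different ones. With so few of the 38 strains at each end, this says little about whether the genes varied together. Both genes were detected on all 38 arrays, with intensities of 109.4 to 303.9 for Prf1 and 696.6 to 2459 for Nkg7. Each value comes from 1 array, so strain differences and technical error cannot be told apart in these spreads.

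Likeness to a member was measured as Pearson's r over the 38 arrays, as a description without a test. For Klrd1 and Klrb1c it rests largely on their separate ranges. The 3 named genes most like Klrd1 were all in the same complex: Klra1, an inhibitory Ly49 receptor gene (r = 0.787), Klri2 (r = 0.737) and Klrk1, which encodes the activating receptor NKG2D (r = 0.723). The 3 most opposite were also on chromosome 6: Lrp6, a Wnt co-receptor gene (r = -0.762), Emp1, an epithelial membrane protein gene (r = -0.684) and the heme-binding protein gene Hebp1 (r = -0.619). Klrb1c was most like Klrb1b (r = 0.901), Klri2 (r = 0.889) and Klra16 (r = 0.834). None of these genes shared a side with Klrd1, or lay opposite to it, on more than 32 of 38 arrays, which is no measure of poor agreement. The 32 arrays of Klri2 and the 31 opposite arrays of Lrp6 are the most that the sizes of their sides allow. All 13 strains low for Klrd1 were low for Klri2 and high for Lrp6. Klra1, Klrk1, Hebp1 and Klra16 were not split (largest gaps of 0.135 to 0.233), so counts by their sides mean little. Of the 3 other split probes within 5 Mb of Klrd1, 0 had at least 34 of 38 arrays on the same or on the opposite side. Against the 13 and 25 arrays of Klrd1, sides of 19 and 19 (Klri2) or 18 and 20 (Klrb1b, Lrp6) cannot reach 34. For these genes the outcome was fixed by the sizes of the sides.

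The arrays on which Lrp6 was high were, in turn, nearly those on which Klri2 was low. Lrp6 was split with 18 arrays at 5.37 to 6.45 and 20 at 7.43 to 9.42, and it lay on the opposite side to Klri2 on 37 of 38 arrays. It lay on the opposite side to Klrd1 on 31 of 38. Emp1, split with 16 arrays at 9.63 to 10.43 and 22 at 10.99 to 11.99, was opposite to Klri2 on 35 arrays and to Klrd1 on 29. A probe whose target sequence differs between the parental strains can read a different level without a difference in RNA, which these values cannot tell apart.

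**Figure D3:**
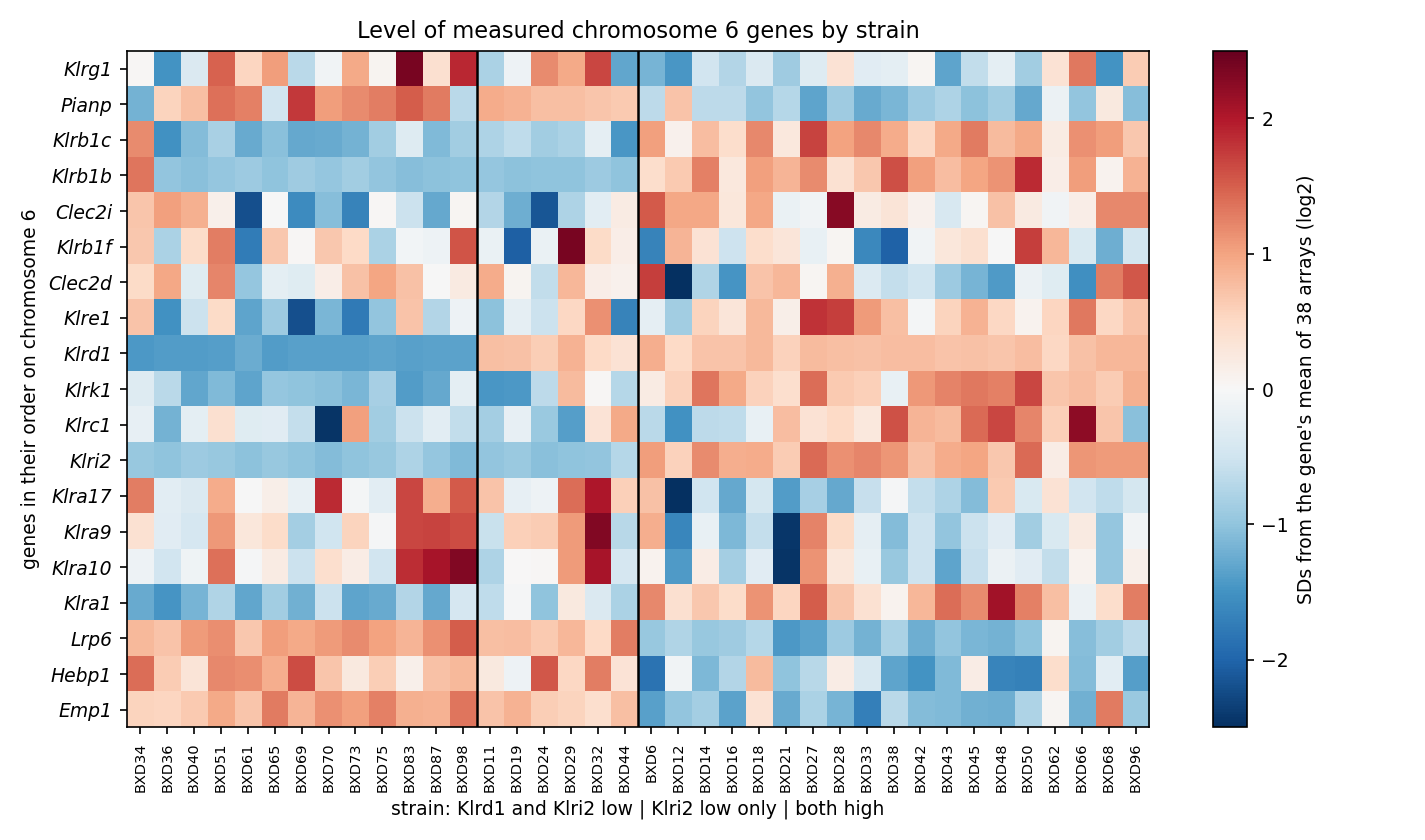
Level of 19 measured genes, top to bottom in their order on chromosome 6, in 38 strains, as SDs from each gene's mean over the arrays (red high, blue low). The 13 strains at the left are low for Klrd1 and Klri2, the next 6 are low for Klri2 only, and Lrp6 and Emp1 run opposite to Klri2; Pianp was added after its values were seen.

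Genes most like the other members lay on other chromosomes, with 1 exception. Prf1 was most like Rab11fip3, a vesicle transport adaptor gene (chromosome 17, r = 0.643), the potassium chloride cotransporter gene Slc12a7 (chromosome 13, r = 0.601) and the phosphatase gene Dusp5 (chromosome 19, r = 0.597). Nkg7 was most like Vsig10l (r = 0.659), which like Nkg7 is on chromosome 7, the tetraspanin gene Cd9 (chromosome 6, r = 0.601) and Spsb3 (chromosome 17, r = 0.592). The genes most like the near-background Klrc1 were Depdc7 (r = 0.653), Olfr869 (r = 0.651) and Gm5460 (r = 0.651).

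A wider list of 83 NK receptor, NK transcription factor, chemokine and granule pathway genes was set beside the members. Of these, 68 had a probe and 51 were measured. The 14 receptor and ligand genes on chromosome 6 of the Klr and Clec2 families were set apart from the other 37, among which the cytokine receptor gene Il12rb2 is also on chromosome 6. Of the 14, 6 had an r beyond 0.5 in size with Klrd1 and 7 with Klrb1c. Of the other 37, 0 did with either. The share of all probes beyond 0.5 is not given. Lrp6, Emp1 and Hebp1, chromosome 6 genes outside the list that were named above as most opposite to Klrd1, were also beyond 0.5 in size with both. They were picked for their r, so they show only that genes other than NK receptors also went beyond 0.5. Without the share of all probes, the counts are not read as a trait of NK receptor genes. Over the 37, r with Klrd1 ran from -0.391 (Ctsc, the gene of the protease that activates granzymes) to 0.359 (Tnfsf10, the TRAIL gene). With Klrb1c it ran from -0.252 to 0.398 (Ctsw, a protease gene of NK cells and cytotoxic T cells). Median r over the 37 was 0.0546 with Klrd1 and 0.0522 with Klrb1c, against 0.174 with Prf1 and 0.250 with Nkg7. For Prf1 the highest were Ctsw (r = 0.544) and Klre1, an NK receptor gene of the complex (r = 0.532). For Nkg7 it was the galectin gene Lgals1 (r = 0.517). The transcription factor genes Tbx21 and Eomes, which are required for NK cell development, had r of 0.329 and 0.231 with Prf1, and 0.148 and 0.339 with Nkg7.

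Whether receptor and granule genes vary together between strains was tested over 35 relations among the 8 members, with a permutation test of 100000 resamples (two-sided) and Benjamini-Hochberg adjustment over the 35. Relations with Klrd1 were computed within its 13 low and its 25 high arrays separately. Of the 35, 21 involve Ncr1, Gzma or Gzmb and 4 more the arrays on which Klrd1 was not detected. These 25 rest on values not above background and say nothing about the genes. Of the other 10, 0 passed the threshold of 0.05 when adjusted over the 35. Adjusted over the 10 alone, a choice added after the data were seen, 2 passed by Pearson's r and 0 by Spearman's rho. The strongest pooled one was between Klrc1 and Klrb1c, with r = 0.465 over 38 arrays (permutation p = 0.0032, adjusted p = 0.107 over the 35 and 0.032 over the 10; rho = 0.422, permutation p = 0.00846, adjusted p = 0.214 and 0.0846; r = 0.389 without the 2 arrays farthest from the median of Klrc1). Klrc1 was detected on only 10 of these arrays, which limits each of its relations among the 10. Dividing the arrays by the values of Klrb1c itself narrows its range, which alone can lower r. Values within its lower or upper range, here and below, therefore cannot serve as a check of a pooled r. Within the lower and the upper range of Klrb1c, a division added after the data were seen, that r was 0.065 over 18 arrays (permutation p = 0.797, adjusted over 6 such relations 0.797; rho = 0.0464, permutation p = 0.855, adjusted p = 0.855) and 0.29 over 20 arrays (permutation p = 0.215, adjusted p = 0.322; rho = 0.162, permutation p = 0.494, adjusted p = 0.627).

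Within the 25 arrays high for Klrd1, Klrd1 and Klrb1c had r = 0.531 (permutation p = 0.0067, adjusted p = 0.107 over the 35 and 0.0335 over the 10; rho = 0.472, permutation p = 0.0183, adjusted p = 0.214 and 0.0917). Without the 2 arrays farthest from the median of Klrd1, r was 0.341. Of these 25 arrays, 6 lay in the lower and 19 in the upper range of Klrb1c, and r within each was not computed. Prf1 and Nkg7, the 2 granule genes, had r = 0.269 over 38 arrays (permutation p = 0.106, adjusted p = 0.368; rho = 0.299, permutation p = 0.0699, adjusted p = 0.407; r = 0.239 without the 2 farthest arrays). Klrb1c and Prf1 had r = 0.328 (permutation p = 0.044, adjusted p = 0.305; rho = 0.322, permutation p = 0.0493, adjusted p = 0.383; r = 0.239 without the 2 farthest arrays). Klrb1c and Nkg7 had r = 0.166 (permutation p = 0.321, adjusted p = 0.565; rho = 0.246, permutation p = 0.137, adjusted p = 0.449; r = 0.0506 without the 2 farthest arrays). Within the lower range of Klrb1c (18 arrays), r was 0.477 with Prf1 (permutation p = 0.046, adjusted over the 6 relations 0.142; rho = 0.434, permutation p = 0.0737, adjusted p = 0.221; r = 0.264 without the 2 farthest arrays). In the same range it was 0.474 with Nkg7 (permutation p = 0.0473, adjusted p = 0.142; rho = 0.527, permutation p = 0.0264, adjusted p = 0.158; r = 0.597 without the 2 farthest arrays). Within the upper range (20 arrays) it was 0.315 with Prf1 (permutation p = 0.176, adjusted p = 0.322; rho = 0.25, permutation p = 0.289, adjusted p = 0.577; r = 0.451 without the 2 farthest arrays) and 0.24 with Nkg7 (permutation p = 0.308, adjusted p = 0.369; rho = 0.152, permutation p = 0.523, adjusted p = 0.627; r = 0.0727 without the 2 farthest arrays).

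The immunophenotypes give the make-up of the lymphocytes stained in each strain, and the series sets them beside the arrays. The tissue these lymphocytes came from is not stated here, so the percentages are not taken as those of spleen. T cells, stained for CD3, made up 10.3% to 56.1% of lymphocytes over the 34 strains (median 33.4%), and B cells, stained for CD79, 36.3% to 82.0% (median 60.6%). CD8+ cells made up 4.4% to 26.4% and CD4+ cells 5.6% to 33.9% (33 strains, as the BXD33 entry lies above 100). The part of lymphocytes counted neither as T nor as B cells, where NK cells would lie, was 100 minus both percentages. It ran from 3.5% in BXD36 to 15.6% in BXD68 (median 7.65%). The other traits are natural logs of the T to B cell ratio (LN T:B), of the CD4 to CD8 ratio (LN CD4:CD8) and of how much MHC class II the B cells carried at the median (LN_MHC_Med).

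Each probe was fitted on each trait in limma over all 17583 probes, so a slope gives log2 units for each SD by which strains differed in that trait. Of the 5 measured members, 0 were called for any of the 8 traits at an adjusted p below 0.05, and 0 of their 40 slopes had an unadjusted p below 0.05. Of all 17583 probes, an unadjusted p below 0.05 was held by 1946 for CD3%, 1798 for CD79%, 1803 for CD4% and 1651 for CD8%. For LN T:B it was held by 2209, for LN CD4:CD8 by 1832, for LN_MHC_Med by 983 and for the cells neither T nor B by 490. The 40 slopes share strains and are not independent. The background of called probes was itself low: 0% for CD3%, 0.108% for CD79%, 0% for CD4%, 0.00569% for CD8%, 0.148% for LN T:B, 0% for LN CD4:CD8, 0.233% for LN_MHC_Med and 0% for the cells counted neither as T nor as B. At these shares a count of 0 among 5 genes says little, and the intervals are given instead.

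For the percentage counted neither as T nor as B cells (SD 2.31%), the slope of Klrb1c was 0.0682 log2 per SD (95% interval -0.19 to 0.326; limma adjusted p = 1). For Prf1 it was 0.0541 (-0.109 to 0.217) and for Nkg7 -0.0354 (-0.193 to 0.122). The interval of Klrd1 was wide, -1.01 to 0.915 around a slope of -0.0476, as its values lie at 2 levels. These slopes rested on few strains: without the 2 farthest from the median of the trait, they were -0.1 for Klrb1c (SE 0.127), 0.0162 for Prf1 (SE 0.0843), -0.134 for Nkg7 (SE 0.0747) and -0.713 for Klrd1 (SE 0.461), each with a limma adjusted p of 1. Against CD8%, the percentage of cytotoxic T cells, which also carry perforin, Prf1 had a slope of 0.0437 (-0.12 to 0.207; adjusted p = 0.941) and Nkg7 of -0.00156 (-0.159 to 0.156; adjusted p = 0.997). The largest slope was that of Klrd1 on CD8%, 0.675 (-0.259 to 1.61; unadjusted p = 0.151, adjusted p = 0.686). Of the 34 phenotyped strains, 9 had the low level of Klrd1 and 25 the high one.

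**Figure D4:**
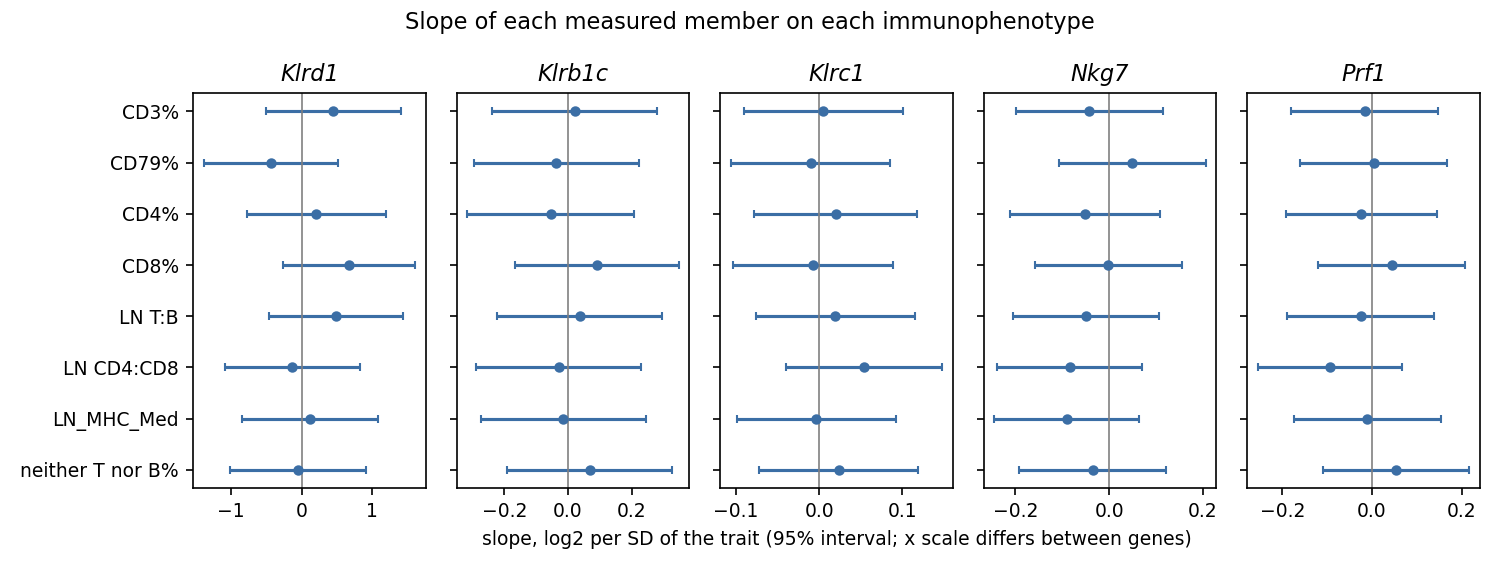
Slope of the 5 measured genes (panels) on 8 immunophenotypes (rows), in log2 units per SD of the trait, with 95% intervals from limma; the x scale differs between panels. Every interval includes 0.

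In the wider list, 0 of 51 measured genes were called for any trait. For CD3%, 9 of the 51 slopes were positive and their median was -0.0474 log2 per SD, beside a median of -0.00818 over all 11167 named genes. For CD79%, 43 of the 51 were positive with a median of 0.055, beside 0.0088 over all genes. The 2 traits are nearly complementary, and the slopes share strains. The smallest adjusted p in the list was that of Gzmm, which encodes granzyme M, in 5 of the 8 traits: 0.0999 for CD3%, 0.1 for CD79%, 0.256 for CD4%, 0.294 for CD8% and 0.0851 for LN T:B. For the cells counted neither as T nor as B, 22 of 51 slopes were positive, with a median of -0.00991, beside -0.00475 over all genes. Shares of positive slopes over all genes are not given, so these counts are not read as a trait of the list.

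RNA of other cells was set beside the members in place of the flow traits, as 45 relations with the means of 9 marker lists. This family was added after the data were seen. The relation of Prf1 with Cd8b1, the 1 measured gene of the CD8 T cell list, was the 1 of 45 past the threshold, with r = 0.554 over 38 arrays (permutation p = 0.0004, adjusted p = 0.018). By rank it was not past it (rho = 0.44, permutation p = 0.00607, adjusted p = 0.137), and without the 2 arrays farthest from the median of Cd8b1 it was r = 0.472 with adjusted p = 0.161. It was not past the threshold with the authors' table either (r = 0.5, adjusted p = 0.0598), and r was 0.139 with the detection p-values as deposited. The smallest p among the others was that of Klrc1 and the neutrophil mean, with r = -0.445 (permutation p = 0.00498, adjusted p = 0.112; rho = -0.409, permutation p = 0.011, adjusted p = 0.164; r = -0.409 without the 2 farthest arrays). Prf1 and the pancreas mean had r = -0.403 (permutation p = 0.0119, adjusted p = 0.178; rho = -0.486, permutation p = 0.00212, adjusted p = 0.0954; r = -0.349 without the 2 farthest arrays), and Klrd1 within its 25 high arrays and the erythroid mean had r = -0.429 (permutation p = 0.0317, adjusted p = 0.357; rho = -0.439, permutation p = 0.0293, adjusted p = 0.33; r = -0.498 without the 2 farthest). The part of these cells in the levels of the members was not tested further.

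Sex was the other label. The 3 arrays labelled female were of 3 strains with no male array, so sex and strain cannot be told apart. Of the 5 measured members, 0 were called at a limma adjusted p below 0.05, beside 0.307% of all probes. Klrd1 was 11.23 ± 0.0609 (SD, n = 3) in arrays labelled female and 8.617 ± 3.03 (SD, n = 35) in those labelled male, a difference of 2.61 with an SE of 1.71 (limma adjusted p = 0.852). All 3 arrays labelled female were on the high side of Klrd1, as were 22 of the 35 labelled male. Klrb1c was 8.902 ± 0.2 and 8.141 ± 0.751, a difference of 0.762 with an SE of 0.425 (limma adjusted p = 0.805). Klrc1, Prf1 and Nkg7 differed by 0.04, 0.01 and -0.01 log2 units, with adjusted p of 0.993, 0.998 and 0.998.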

How the data were processed

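Spleen RNA of 38 strains was hybridised to Illumina Sentrix mouse-6 v1.1 arrays, per the labels. The deposited table holds probe intensity values that were not normalized. A detection p-value stands beside each deposited intensity, per the file headers. The authors' table of processed values is on a log2-like scale whose exact transformation is not known (column medians 7.83 to 7.86); the submitters' processing notes name lumi, with no version. Deposited immunophenotypes are a percent of lymphocytes or a natural log, per the labels; CD4 is a percent there too, except the entry above 100, which was left out.

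The deposited detection p-values did not follow intensity for some probes, so each was replaced by the running median of 201 probes sorted by brightness on that array. Under R 4.3.3 (limma 3.58.1; data.table, version 1.17.8), neqc corrected and normalized the intensities with an offset of 16, and probes with a smoothed p-value below 0.01 on at least 3 arrays were kept. By the platform annotation 20256 probes had a single symbol, 9 had several and 14227 had none. Of the single symbols, 20213 were found in RefSeq's GRCm38.p6 gene list. Slopes came from lmFit and eBayes, adjusted by Benjamini-Hochberg over all probes kept, and correlations from Python 3.11.15 with numpy 2.4.6, scipy 1.17.1 and pandas 2.3.3; figures were drawn with matplotlib 3.10.9. Both procedures were tested on simulated data. Marker lists of 10 cell types were averaged per array.

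The rule for named genes took all 8 members, the 3 probes most like each, for the split gene Klrd1 also the 3 most opposite and split neighbours within 5 Mb, and called genes of the wider list. Other names (Klrb1b and Klri2 by side, Pianp, and list genes with the largest r) were chosen after their values were seen. The members and lists were chosen with earlier results of these data known. Each strain had 1 pool, so p-values measure the spread between strains, technical error included, and the number of arrays limits the precision. Whether pooled mice were also phenotyped is not given in the sources used here.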

Additional observations from a re-analysis of the deposited data

How the results depend on the processing

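Klrd1 was the 1 measured member with a split under all 5 other settings tried, with the same 13 low strains each time. The number of split probes was 329. It was 110 with the detection p-values as deposited, 254 without background correction and 158 in the authors' table, 210 with a gap of at least 1 and 370 with 3 arrays on each side.

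No member was called for any trait or for sex under any setting run. Of 462 member slopes under these settings 53 had the other sign, and 0 were called. Counts over all probes moved more: called probes ran from 0 to 11 for CD3% (0 as reported), 0 to 20 for CD79% (19), 0 to 1 for CD8% (1), 0 to 28 for LN T:B (26), 24 to 40 for LN_MHC_Med (41) and 37 to 83 for sex (54). They were 0 throughout for CD4%, LN CD4:CD8 and the cells counted neither as T nor as B.

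Among relations between measured members, 1 passed the threshold with the authors' table, Klrc1 with Klrb1c (r = 0.514, adjusted p = 0.0315). Adjusted over the 10 relations left without Ncr1, Gzma, Gzmb and the low side of Klrd1, 2 passed, as fewer were tested. The 10 still include relations of Klrc1, mostly not detected, and Klrc1 with Klrb1c was among those that passed. Under the other settings run, 0 passed. The relations with marker list means, 1 of which was called, gave 0 with the deposited detection p-values, 0 with the authors' table and 0 without the 2 farthest arrays. The cause was not tested. The array chip as a block could not be run, as no header names the chip. Ncr1, Gzma and Gzmb were not above background on any array, and Klrc1 was on 10, which limits what can be said of them. No paired analysis was possible because the series has 1 group with 1 array per strain.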

Other observations

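The measured Ly49 receptor genes, members of a multigene family next to Klrd1 whose probes may cross-hybridise between copies, did not all vary the same way. Klra1, which ran from 4.77 to 7.61, and Klra16, from 4.56 to 6.75, had r of 0.789 and 0.834 with Klrb1c over the 38 arrays. Klra9 (7.78 to 10.16), Klra10 (7.20 to 9.71) and Klra17 (7.17 to 10.04) had r of -0.208, -0.244 and -0.393 with it, and Klra23 (4.58 to 6.23) had 0.178. With Prf1, r was positive for all 6, from 0.155 for Klra1, 0.301 for Klra17 and 0.321 for Klra16 to 0.405 for Klra9, 0.422 for Klra23 and 0.512 for Klra10. BXD32 was the highest array for Klra9, Klra17 and Klra23, and BXD98 for Klra10. These values are descriptions over probes that share a chromosome region, with no test.

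Pianp, on chromosome 6 beyond Klrb1c, was opposite to Klrb1c with r of -0.831 and ran from 4.50 to 7.03. On the same chromosome Klrb1f and Clec2d, genes for a receptor of the NKR-P1 family and for a ligand of that family, had r of -0.142 and -0.138 with Klrb1c. They lie between Klrb1b and Klre1, whose r with it were 0.901 and 0.806, as does Clec2i, which encodes another ligand of that family and had r of 0.555.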
